A study of Mus musculus with 2 samples.

Results

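Mir22, Mir674, Mir140 and Mir339 are 4 microRNA genes of the mouse cerebral cortex whose levels stood about 3-fold or more apart between the 2 libraries of this study. They were chosen by that ratio, with a limit of 3-fold that Mir140 passed with some scalings of the libraries and just missed with another, out of 2202 microRNA genes in the deposited tables, so the ratio itself is given as a description and was not tested. The libraries hold small RNA below 30 nt of left cerebral cortex tissue. The mice were females of the F1 hybrid B6CASTF1/J, aged 25 days. The labels give them as biological replicates 1 and 2 of a single group, with separate animal numbers and the same donor record. No treatment or genotype was set against another, so the measurements bear on how far these genes varied between the libraries. With 2 libraries, the spread of a gene can hold differences between animals, between dissections and between library preparations, which cannot be told apart here.

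A microRNA gene is transcribed as a longer RNA that folds back into a hairpin. The hairpin is cut to a short duplex, and either strand of the duplex, the 5p or the 3p arm, can be loaded into an Argonaute protein. The loaded arm pairs with messenger RNAs mainly through its seed, bases 2 to 8, and lowers their output. Many microRNAs lie within introns or exons of host genes and are made from the host transcript. Mir22 is broadly expressed and best known from the heart, Mir140 is best known from cartilage, Mir339 is broadly expressed, and Mir674 is known from rodents.

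The mature arms are shown because the seeds set apart which genes can act on the same targets. Sequences are from RefSeq on GRCm38.p6, which held an entry for each of the 4 genes, and capitals mark the seed. The entries used held no 5p arm for Mir140, so that arm is absent from all statements on arms and seeds here.
mmu-miR-22-5p: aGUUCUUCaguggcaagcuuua
mmu-miR-22-3p: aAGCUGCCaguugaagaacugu
mmu-miR-674-5p: gCACUGAGaugggaguggugua
mmu-miR-674-3p: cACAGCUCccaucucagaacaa
mmu-miR-140-3p: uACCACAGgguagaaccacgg
mmu-miR-339-5p: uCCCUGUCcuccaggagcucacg
mmu-miR-339-3p: uGAGCGCCucggcgacagagccg
No seed of these 7 arms was shared between any 2 of the 4 genes. The first base was U in 3 arms (miR-140-3p and both arms of Mir339), A in both arms of Mir22, and G and C in the 5p and 3p arms of Mir674. Over 377 RefSeq arms of 201 microRNA genes that averaged 50 CPM or more, U came first in 36.9% and A in 26.5%, while G was the least common first base at 11.7%. CPM is a gene's own-strand count scaled to the sum of such counts over all microRNA genes of the library, in the usual counts-per-million unit.

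The hairpins are shown because each table entry counts reads over the whole hairpin, so a value joins both arms. Coordinates are on mm10, and capitals mark the mature arms above.
Mir22, plus strand, chr11:75463716-75463810: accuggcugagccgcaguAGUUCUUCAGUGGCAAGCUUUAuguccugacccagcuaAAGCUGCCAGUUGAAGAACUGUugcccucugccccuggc
Mir674, plus strand, chr2:117185127-117185226: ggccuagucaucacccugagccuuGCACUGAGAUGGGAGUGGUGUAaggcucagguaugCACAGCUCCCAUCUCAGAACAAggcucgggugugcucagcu
Mir140, plus strand, chr8:107551244-107551313: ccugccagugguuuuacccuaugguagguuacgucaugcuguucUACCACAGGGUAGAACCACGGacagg
Mir339, minus strand, chr5:139369650-139369745: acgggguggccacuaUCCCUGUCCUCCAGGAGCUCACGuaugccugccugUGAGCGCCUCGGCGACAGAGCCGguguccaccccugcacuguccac
Each of these sequences was identical to the hairpin of the gene annotation used for the counts.

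The 4 genes lay on 4 chromosomes and had different kinds of host. Mir22 (ENSMUSG00000065529.1) lay in an exon of both transcripts of the noncoding gene Mir22hg, and in an exon of 1 noncoding transcript of the overlapping coding gene Tlcd2. Mir140 (ENSMUSG00000065439.1) lay within Wwp2, which encodes a ubiquitin ligase, where 1 of 11 transcripts held it in an exon as a retained intron. Mir339 (ENSMUSG00000065593.1) lay in an intron of the coding gene 3110082I17Rik on the same strand. Mir674 (ENSMUSG00000076376.1) overlapped no other annotated gene, and the nearest upstream gene was Spred1, an inhibitor of Ras signalling, 2848 bases away on the same strand. Of the 231 microRNA genes that averaged 50 CPM or more, 65 overlapped an exon on their own strand, 100 lay in introns on their own strand and 55 overlapped no other gene, so the members covered the 3 most common settings.

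Counts on the own strand of microRNA genes summed to 3017058 in replicate 1 and 3209361 in replicate 2, and 3 counts, the limit that a count of 0 allows, corresponded to 0.994 and 0.935 CPM. The tissue label was checked with 12 neuronal microRNA genes, of which 10 had at least 10 counts in total. The summed level of the list was 219837 CPM in replicate 1 and 208156 CPM in replicate 2. Most of it came from Mir139 alone, at 155820 and 141898 CPM, and the neuron-defining Mir124a genes had only between 0 and 9 counts per library. Reads placed at several loci, 40.3% and 39.0% of all reads, are outside the gene counts, and genes with near-identical copies can be undercounted. The 4 members had no such copy among the microRNA genes, since none shared 16 or more bases with another annotated microRNA hairpin on either strand. The longest shared stretch was 13 bases for Mir22 (with Mir6998) and for Mir339 (with Mir487b), and 11 bases for Mir674 and Mir140.

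Mir22 was the member with the highest mean and stood higher in replicate 2. It had 7263 counts in replicate 1 (exact Poisson 95% interval 7097 to 7432) and 31002 counts in replicate 2 (30658 to 31349). On the CPM scale, levels were 2407 in replicate 1 and 9660 in replicate 2, with a mean of 6034 ± 5128 CPM (SD, n = 2). The gene ranked 61st by level in replicate 1 and 23rd in replicate 2 among all genes. Intervals cover counting error only and leave out spread between animals and preparations. Even for counting error they can be too narrow, because PCR reads without molecular identifiers are not independent molecules.

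Mir674 showed the opposite order at nearly the same mean level. It had 29502 counts in replicate 1 (29166 to 29841) and 6675 counts in replicate 2 (6516 to 6837). Levels were 9778 CPM in replicate 1 and 2080 CPM in replicate 2, with a mean of 5929 ± 5444 CPM (SD, n = 2), and the rank went from 20 in replicate 1 to 73 in replicate 2. The sum of Mir22 and Mir674 was 36765 counts in replicate 1 and 37677 in replicate 2, which is 1.22% and 1.17% of microRNA gene counts. The sum of the other pair, Mir140 and Mir339, was 7954 counts in replicate 1 and 4085 in replicate 2, or 0.264% and 0.127%. Both pairs join genes chosen for their ratios with opposite directions, so nothing is read from either sum.

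Mir140 stood higher in replicate 1, as Mir674 did. It had 7645 counts in replicate 1 (7475 to 7818) and 2712 in replicate 2 (2611 to 2816). The levels were 2534 and 845 CPM, with a mean of 1689 ± 1194 CPM (SD, n = 2), and the ranks were 58 and 117. Mir339 was the lowest of the 4 and stood higher in replicate 2, as Mir22 did. Its counts were 309 in replicate 1 (276 to 345) and 1373 in replicate 2 (1301 to 1448), which gave 102 and 428 CPM, a mean of 265 ± 230 CPM (SD, n = 2) and ranks of 195 and 147.

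**Figure D1:**
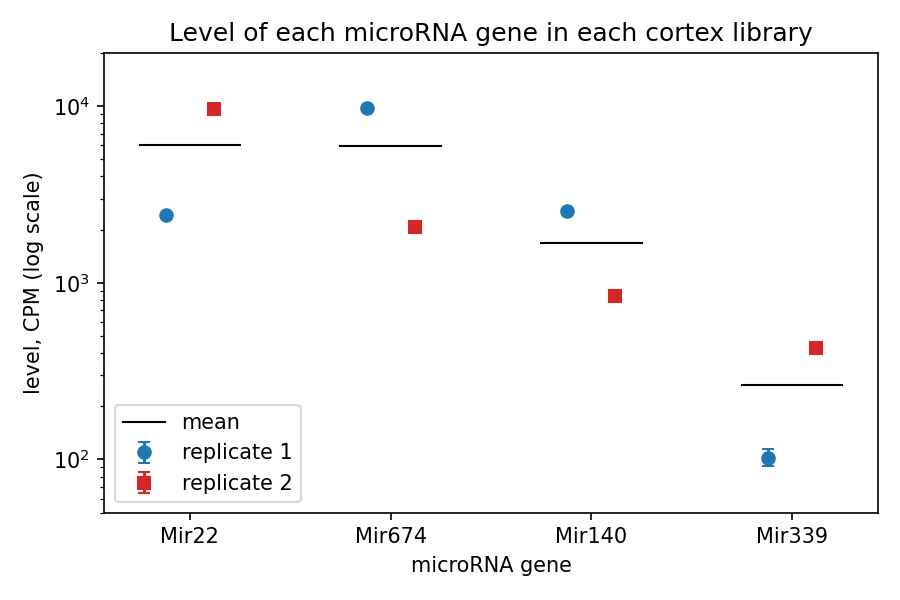
Level of Mir22, Mir674, Mir140 and Mir339 in CPM on a log axis, with replicate 1 as circles, replicate 2 as squares, 95% Poisson intervals as bars (often smaller than the symbol) and the mean as a line. Mir22 and Mir339 stand higher in replicate 2, and Mir674 and Mir140 stand higher in replicate 1.

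The order of the members by level depended on the library. It ran Mir674, Mir140, Mir22 and Mir339 from highest to lowest in replicate 1, and Mir22, Mir674, Mir140 and Mir339 in replicate 2. A microRNA read spans a whole mature molecule, so counts were not divided by length. The means of Mir22 and Mir674 differed by far less than the SD of either gene. The ranges of Mir674 and Mir140 also overlapped, with 2080 CPM for the former in replicate 2 and 2534 CPM for the latter in replicate 1. Mir339 lay below the 3 others in both libraries. Together the 4 genes held 1.48% of microRNA gene counts in replicate 1 and 1.30% in replicate 2.

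The reads of all 4 members came from 1 strand. In both libraries the opposite-strand count was 0 for each member, and the count on either strand equalled the count on the own strand. The own-strand share was therefore 100%, with an exact lower 95% bound between 98.8% for Mir339 in replicate 1 and 99.99% for Mir22 in replicate 2. The other genes over 3-fold apart after TMM scaling also had an opposite-strand count of 0 in both libraries, so this was not particular to the members. No member overlapped another counted microRNA gene. Other genes with wide ratios did: Mir380, Mir376a and Mir497 each had a microRNA gene annotated on the opposite strand (Gm25750, Gm25252 and Mir497b), and the count of each on the own strand returned as the opposite-strand count of its partner.

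The ratio that chose the members was largest for Mir674. After TMM scaling, which sets library sizes from the bulk of genes, Mir674 was 5.51-fold higher in replicate 1, a log2 ratio of replicate 2 over replicate 1 of -2.46 (95% counting interval -2.50 to -2.42). Mir140 was 3.51-fold higher in replicate 1 (log2 ratio -1.81, -1.88 to -1.75). Mir339 was 3.56-fold higher in replicate 2 (log2 ratio 1.83, 1.65 to 2.02), and Mir22 was 3.42-fold higher in replicate 2 (log2 ratio 1.78, 1.74 to 1.81). The intervals of Mir22, Mir140 and Mir339 overlapped in size, and that of Mir674 lay above them.

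Of the 231 genes that averaged 50 CPM or more, 11 (4.76%) were over 3-fold apart after TMM scaling, 4 (1.73%) higher in replicate 1 and 7 (3.03%) higher in replicate 2. The members were 4 of these 11, so the limit alone did not set them apart. Mir377 at 4.29-fold and Mir380 at 4.06-fold, for example, passed it and are not members. By the size of the ratio after TMM scaling, the members had ranks 1 (Mir674), 7 (Mir339), 8 (Mir140) and 9 (Mir22). The median gene of the 231 was 0.42 apart on the log2 scale in either direction. TMM moved every log2 ratio by -0.23 relative to library totals, so directions are relative to that shift. With library totals, which the member rule uses for CPM, 13 genes (5.63%) were over 3-fold apart, 3 (1.30%) higher in replicate 1 and 10 (4.33%) higher in replicate 2. On that scale Mir22 was 4.01-fold, Mir674 4.70-fold and Mir339 4.18-fold apart, and Mir140 was 2.9986-fold apart, just under the limit. Their ranks by size were then 3 (Mir674), 5 (Mir339), 6 (Mir22) and 14 (Mir140), with Mir377 at 5.02-fold and mmu-mir-3535 at 4.74-fold ahead of Mir674. The directions of all 4 members were the same with TMM, library totals and DESeq2 size factors.

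**Figure D2:**
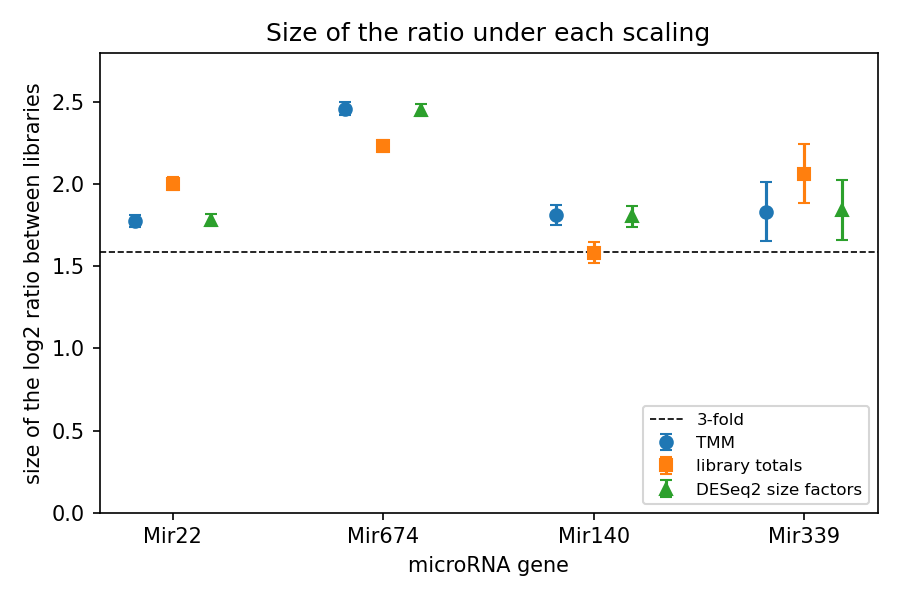
Size of the log2 ratio between the libraries for each member under TMM scaling, library totals and DESeq2 size factors, with 95% counting intervals, and the 3-fold limit as a dashed line. With library totals Mir140 lies at the limit, and the other 3 members lie above it under each scaling.

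Just inside the 3-fold limit after TMM scaling stood Mir149 at 3.13-fold, Mir15a at 3.36-fold and Mir22 itself. Just outside it stood Mir381 at 2.86-fold and Mir153 at 2.70-fold, both higher in replicate 2, and Mir376a at 2.57-fold, higher in replicate 1. With library totals Mir381 and Mir153 passed the limit at 3.35-fold and 3.16-fold. Genes thus lay close on both sides of the limit.

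**Figure D3:**
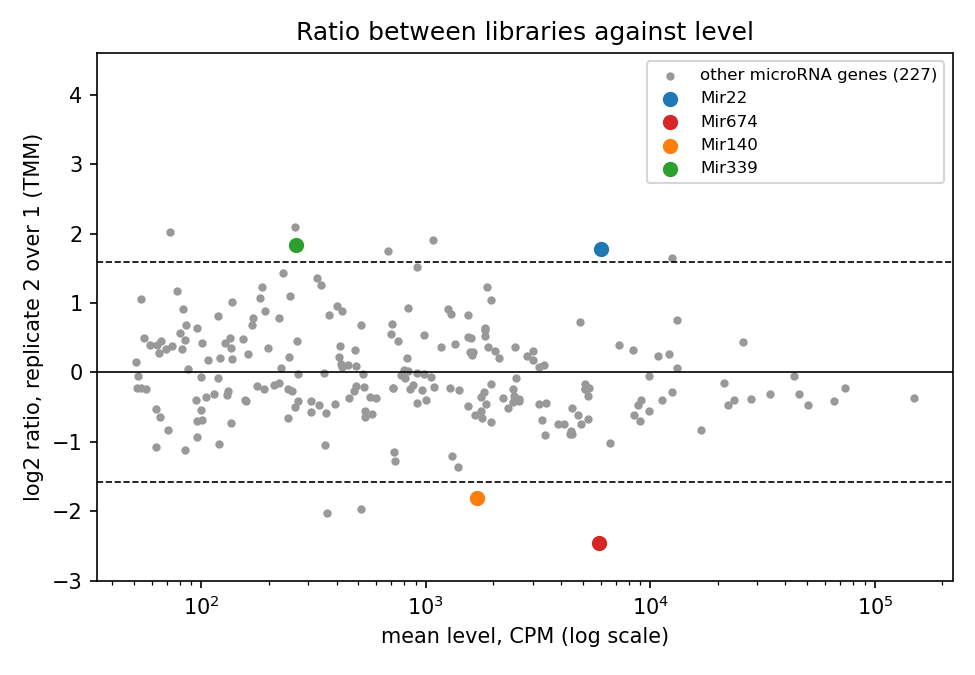
Log2 ratio of replicate 2 over replicate 1 after TMM scaling against the mean level in CPM on a log axis, for the 4 members and 227 other microRNA genes, with the 3-fold limits as dashed lines. Mir674 is the lowest point of the plot at -2.46, and Mir22 lies above the limit among highly expressed genes.

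Each member is set beside genes of similar level as a description, since the rule itself picked the members for wide ratios. Of 21 other genes with a mean within 1.5-fold of that of Mir22, the median size of the log2 ratio was 0.61, and 1 gene, Mir674, was further apart than Mir22. Of these 21 genes, 18 were higher in replicate 1 after TMM scaling and 16 with library totals, whereas Mir22 was higher in replicate 2. Over all 231 genes, 130 were higher in replicate 1 after TMM scaling and 99 with library totals. Among 35 genes other than the members with a mean of 5000 CPM or more, the numbers were 27 and 21. Around Mir674, 16 of 20 genes of similar level were likewise higher in replicate 1 (14 of 20 with library totals), the median size was 0.61 and none was further apart than Mir674.

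Around Mir140, the 38 genes of similar level divided evenly, 19 in each direction after TMM scaling and 22 higher in replicate 2 with library totals. Their median size was 0.44, and the widest was Mir376a at -1.36, short of Mir140. Around Mir339 the median size was 0.49. There 9 of 32 genes of similar level were over 2-fold apart after TMM scaling, and 2 of them, Mir377 at 2.10 and Mir380 at -2.02, were further apart than Mir339.

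**Figure D4:**
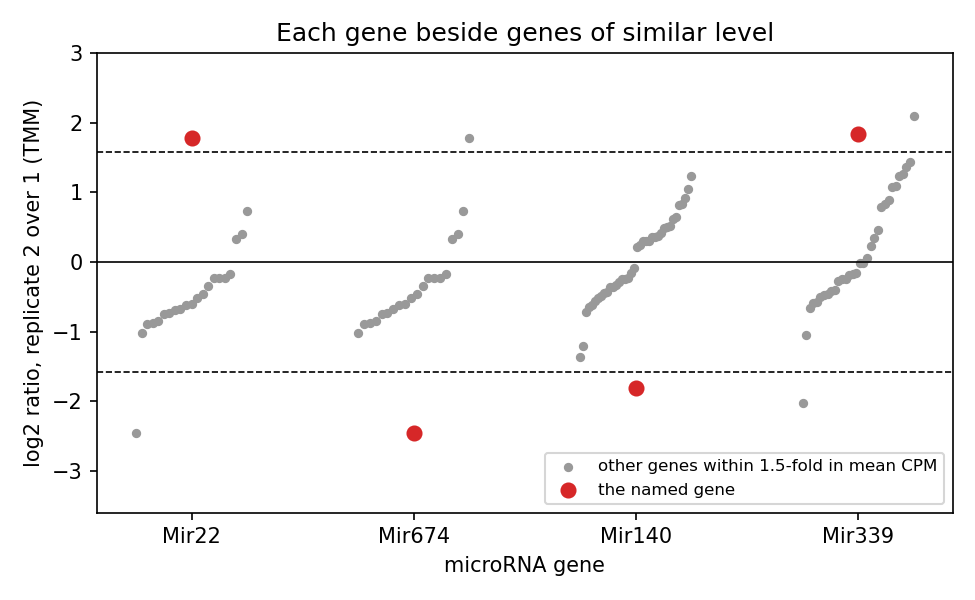
Log2 ratio of replicate 2 over replicate 1 after TMM scaling for each member (large points) beside the other microRNA genes within 1.5-fold of its mean CPM (small points, sorted by ratio). The 38 genes around Mir140 all lie within the dashed 3-fold limits, while 1 of 21 around Mir22, 1 of 20 around Mir674 and 2 of 32 around Mir339 lie beyond them.

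The genes whose ratio was most like that of each member were found by the distance in log2 ratio, over 2 libraries, which makes likeness a weak description. For Mir22 they were Mir15a (distance 0.029), Mir339 (0.058) and Mir149 (0.13). For Mir339 they were Mir22, Mir497 (0.077) and Mir15a (0.086). Mir15a had 833 and 3486 counts in replicates 1 and 2, Mir497 had 1195 and 5602, and Mir149 had 16110 and 62758. For Mir140 the nearest were Mir145a (0.16), Mir380 (0.21) and Mir376a (0.45), and for Mir674 they were Mir380 (0.44), Mir145a (0.49) and Mir140 (0.65). Mir674 thus had no gene within 0.4 of its ratio.

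Of the members, only Mir22 had microRNA genes with many counts close by on the chromosome, and their ratios were smaller than its own. Within 1 Mb of Mir22, the neuronal genes Mir132 and Mir212, 289969 and 290238 bases away on the same strand, were the only microRNA genes with at least 10 counts. Mir132, which is induced by neuronal activity, had 106051 and 106567 counts in replicates 1 and 2, a log2 ratio of -0.31 after TMM scaling and -0.082 with library totals. Mir212, transcribed with it, had 2515 and 5591 counts and a log2 ratio of 0.83 after TMM scaling and 1.06 with library totals, in the direction of Mir22. Near Mir339 only Mir7037, 398134 bases away, reached 10 counts, with 1 and 19. No microRNA gene within 1 Mb of Mir140 reached 10 counts, and none was annotated within 1 Mb of Mir674. Over whole chromosomes, none of the 11 other genes on chromosome 2 and none of the 8 on chromosome 8 that averaged 50 CPM or more was over 2-fold apart after TMM scaling. With library totals, 1 of those on chromosome 2, Mir129-2, passed 2-fold. On chromosome 11 with Mir22, 4 of 14 other genes were over 2-fold apart after TMM scaling, and Mir497 at a log2 ratio of 1.91 was further apart than Mir22. On chromosome 5 with Mir339, 1 of 6 was, Mir106b at 1.36.

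Few genes carried a seed of the printed arms of the members. In RefSeq, the seed of miR-674-5p was also found in miR-1947-3p and miR-3473d, and that of miR-140-3p in miR-497b. The other 5 printed arms shared their seed with no other mouse entry. The sharing arms are shown for comparison with those above, with the seed in capitals.
mmu-miR-1947-3p: gCACUGAGcuagcucucccucc
mmu-miR-3473d: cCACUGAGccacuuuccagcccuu
mmu-miR-497b: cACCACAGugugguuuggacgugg
The genes of these arms gave few counts. Mir1947 had 6 counts in replicate 1 and 7 in replicate 2, Mir3473d had 3 and 1, and Mir497b had 0 in both. Among genes with a RefSeq arm, 958 of 2202, Mir674 and Mir140 therefore supplied nearly all counted reads of genes with these seeds in both libraries. The counts join both arms of a hairpin, so they do not show how many reads carried the seed.

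In hairpin features that the rule did not use, all 4 members lay above the median GC content and below the median folding energy per nt of the 231 genes, some of them narrowly. GC content was 52.9% for Mir140, 55.8% for Mir22, 57.0% for Mir674 and 66.7% for Mir339, against a median of 50.5%. Mir339 was the most GC-rich member, and 219 of the 231 genes lay below it. Hairpin length ran from 70 nt for Mir140 to 100 nt for Mir674, around a median of 85 nt. Each hairpin was predicted by RNAfold to fold into a single stem-loop, with 30 to 40 base pairs.

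Predicted folding energy set Mir674 and Mir140, the members higher in replicate 1, at the stable end of the 231 genes. Mir674 had -0.609 kcal/mol per nt, with 7 genes lower, and Mir140 had -0.559, with 19 genes lower. Mir380 and Mir145a, which were also over 3-fold higher in replicate 1 after TMM scaling, lay around the median of -0.439, at -0.457 and -0.433. Mir22 at -0.441 and Mir339 at -0.456 lay just below that median. In these folds 21 of 22 bases of each Mir22 arm and 20 of 21 bases of miR-140-3p were paired, against 19 of 22 in each Mir674 arm and 18 and 17 of 23 in the 5p and 3p arms of Mir339. Across the 231 genes, Spearman's rho of the log2 ratio was 0.17 with GC content, 0.047 with hairpin length, -0.057 with folding energy per nt and -0.22 with mean CPM. For the size of the log2 ratio in either direction, rho was -0.0082 with GC content and -0.082 with hairpin length. It was -0.16 with folding energy per nt and -0.043 with mean CPM. These values describe 2 libraries across genes that are not independent, and none is a strong relation.

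**Figure D5:**
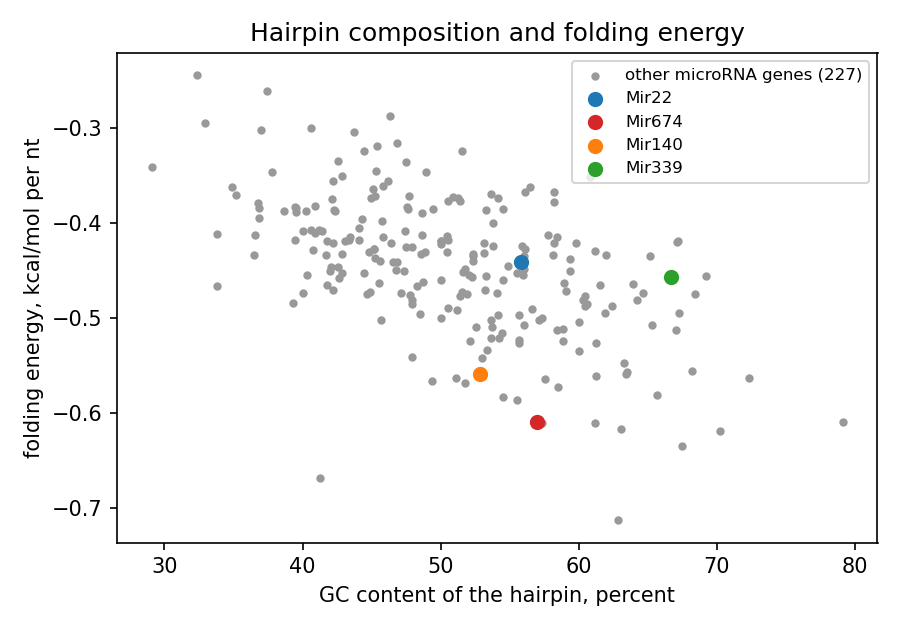
Folding energy per nt predicted by RNAfold against GC content of the hairpin, for the 4 members and 227 other microRNA genes that averaged 50 CPM or more. Mir674 and Mir140 lie toward the low, more stable edge at -0.609 and -0.559 kcal/mol per nt, and Mir339 toward the GC-rich side at 66.7%.

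Median spreads between the libraries ranged from 0.38 to 0.49 on the log2 scale over the 3 types of host setting that the members represent. Among the other genes, the median size of the log2 ratio was 0.38 for 63 genes that overlap an exon on their strand, as Mir22 and Mir140 do. It was 0.43 for 99 genes in introns on their strand, as Mir339 is, and 0.49 for 54 genes that overlap no other gene, as Mir674. In these groups 2, 2 and 3 genes were over 3-fold apart. Mir140 overlaps an exon only in 1 of 11 Wwp2 transcripts, a retained intron, and would otherwise join the intron group.

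Marker genes of some other cell types also differed between the libraries, in the direction of one or the other pair of members. These directions are read against the lean of all 231 genes, of which 130 were higher in replicate 1 after TMM scaling and 99 with library totals. Fewer cells of a type and less RNA per cell cannot be told apart in bulk tissue. Toward replicate 1, as for Mir674 and Mir140, stood both mural genes, with a summed level of 6298 CPM in replicate 1 and 3730 CPM in replicate 2, Mir143 at a log2 ratio of -0.89 and Mir145a at -1.97. All 6 microglial and immune genes stood the same way after TMM scaling, at 7762 and 6423 CPM in sum, although Mir146 turned to 0.0074 with library totals. Most of that sum came from Mir342 alone, at 4918 and 4022 CPM.

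Toward replicate 2, as for Mir22 and Mir339, stood the endothelial gene Mir126a, which alone gave the list's 5714 CPM in replicate 1 and 8835 CPM in replicate 2, while its partner Mir126b was at 0. The 3 of 4 oligodendrocyte genes with at least 10 counts also stood higher in replicate 2, at 3662 and 5626 CPM in sum. Of 4 mesenchymal and meningeal genes, which summed to 11.3 and 56.4 CPM, only Mir214 reached 10 counts, with 31 and 177, and Mir199a-1 was at 0. Neuronal and astrocyte genes divided evenly after TMM scaling, 5 of 10 and 3 of 6 higher in replicate 2, and 6 of 10 and 3 of 6 with library totals. The astrocyte genes summed to 40489 CPM in replicate 1 and 35443 CPM in replicate 2, a log2 ratio of -0.42 after TMM scaling. On the same scale the neuronal sum stood at -0.31, the microglial and immune sum at -0.50 and the mural sum at -0.98. The endothelial sum stood at 0.40 and the oligodendrocyte sum at 0.39. The microglial and immune sum thus lay close to the astrocyte sum. The part of cell composition in the ratios of the members was not tested.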

How the data were processed

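Small RNA libraries from 2 cortex samples of a single group were used. The authors deposited raw read counts per microRNA gene on mm10 with GENCODE M21 annotation, per the file headers and labels. Which aligner and counter made them is not given in the sources used here. Strand roles of the 3 count columns were read from the values. The 4 rows of read classes outside genes were left out of library sizes.

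The members and lists were chosen with earlier results of these data known. CPM used the own-strand sum. Log2 ratios used TMM sizes from edgeR 4.0.16 over genes with at least 10 counts, with exact binomial counting intervals. The ratio and interval calculation was checked on simulated Poisson counts scaled by library totals. That check did not cover TMM sizes, and its counts held no spread between animals or preparations. Alternatives were library totals, DESeq2 1.42.0 size factors, either-strand counts, 1 CPM added, other minimums and each library alone. No test between libraries was made. Comparisons took genes that averaged 50 CPM or more.

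Named genes were the members, the 3 closest in ratio to each, the 3 on each side of the 3-fold limit, seed sharers and neighbours within 1 Mb with at least 10 counts, and cell type markers. Seed sharers with fewer counts and the widest genes of similar level were named after their values were seen. The marker lists also held red blood cell, ciliated and choroid, liver and striated muscle genes, whose summed levels were 51.0, 489, 46.7 and 50.0 CPM in replicate 1 and 75.4, 340, 51.1 and 44.2 CPM in replicate 2. Of these, 1 ciliated gene (Mir449c) and 5 muscle genes of the Mir1a and Mir133 families were at 0 in both libraries. Of 1738 mature RefSeq entries, 1587 matched a counted gene. Hairpins were folded with RNAfold 2.7.2. Python 3.11.15 and scipy 1.17.1 were used.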

Additional observations from a re-analysis of the deposited data

How the results depend on the processing

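The direction of each member's ratio was the same with library totals, DESeq2 size factors, counts on either strand and 1 CPM added. With library totals the log2 ratios were 2.00 for Mir22, -2.23 for Mir674, -1.58 for Mir140 and 2.06 for Mir339. With counts on either strand the ratios of Mir22 and Mir674 moved beyond their counting intervals, to 1.83 and -2.41, as the denominators alone changed. The number of genes over 3-fold apart was 52 of 496 with a minimum of 10 counts in total and 7 of 131 with a mean of at least 500 CPM, against 11 of 231. Of 16 alternatives for the 4 ratios, 10 stayed within the counting interval and 0 turned the direction. A seed of bases 2 to 7 gave 5 sharing genes in place of 3. Each level rests on 2 libraries, so leaving out either always gives a value within 1 SD of the mean and says nothing about stability. Without replicate 1 or 2, it ranged from 2407 to 9660 CPM for Mir22, 2080 to 9778 CPM for Mir674, 845 to 2534 CPM for Mir140 and 102 to 428 CPM for Mir339. No ratio exists with 1 library. No paired analysis was possible because the study has a single group. Depth limited Mir339 most, with 309 counts in replicate 1.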
